A study of Arabidopsis thaliana with 4 samples.

Results

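The 43 loci described here make up the glucosinolate system of Arabidopsis thaliana: the enzymes that build glucosinolates, the MYB factors that drive those enzymes, the 2 transporters GTR1 and GTR2, and the myrosinase system that breaks the compounds down. They were chosen by locus for their known roles in the pathway, with earlier results of these data known. Of the 43, 41 had a value among the 24750 genes listed, and AOP2 and AOP3 were not analysed here. RNA came from wild-type Col-0 plants and was read by ONT direct RNA sequencing (DRS), in which each native poly(A) RNA molecule gives 1 read. The 2 floral bud libraries held unopened buds of plants grown for 14 days on plates and then for 3 weeks in soil. The 2 seedling libraries held whole seedlings after 14 days on plates with Murashige and Skoog medium and sucrose. Both stages had 16 h of light per day, neither carried a transgene, and no treatment separated them. Organ, age and growth medium differ together between the stages and cannot be told apart.

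Glucosinolates are thioglucosides made by Brassicales and best known as defence compounds. In Arabidopsis the aliphatic kind is made from methionine whose side chain is first lengthened in the chloroplast, and the indolic kind from tryptophan. In both, a core pathway of cytochrome P450s, glutathione transferases, a peptidase, a C-S lyase, glucosyltransferases and sulfotransferases builds the finished molecule. Intact glucosinolates are stored apart from the myrosinases, thioglucosidases held in specialised cells such as guard cells and the idioblasts along the phloem. When tissue is crushed the 2 meet, and specifier proteins steer the released aglucone towards nitriles and related products in place of isothiocyanates.

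The libraries held between 579416 and 796885 rounded counts, so that 3 counts, the limit used here for detection, stood for between 3.765 and 5.178 CPM, counts scaled to the size of the library. Markers of the organs followed the labels. The 5 floral organ genes summed to 943 and 767 counts in floral buds, against 6 and 3 counts in seedlings, and the 2 photosynthesis genes to 2957 and 2458 counts in floral buds, against 11114 and 11907 counts in seedlings. The 6 root genes with a value summed to 4 and 2 counts in floral buds, against 33 and 30 counts in seedlings, and 5 of them were at 0 in the buds. In bulk RNA, fewer cells of a type and less RNA per cell cannot be told apart.

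A gene was called a DEG when edgeR's quasi-likelihood test gave a Benjamini-Hochberg FDR below 0.05 over all genes tested and the fold change was above 2. By that rule 30 of the 39 members tested were DEGs, against 19.8% of the 18647 genes tested. Of these, 27 were lower in floral buds, against 9.52% of all genes, and 3 were higher, against 10.3% of all genes. The median log2 fold change (floral buds over seedlings, as throughout) was -2.52 over the members tested and 0.06 over all genes. With 10 members at a lower bound set by 3 counts and NSP2 left out for want of counts, the members' median was -2.05. The CPM of the 2 stages did not overlap for 35 of the 39, against 57.9% of all genes. A filter on low counts favours genes that are high in 1 stage, and 10 of the 39 passed it through 1 stage alone, the seedlings in each case, while NSP2 passed only on the sum of both stages. Among genes with at least 5 counts in each stage, 21 of 28 members were DEGs, 18 of them lower and 3 higher in floral buds, against 14.1% of 14211 genes. Of those 14211 genes, 7.7% were DEGs lower in floral buds and 6.42% were DEGs higher there.

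Of the synthesis enzymes with at least 5 counts in each stage, all 16 had a log2 fold change below 0, and 14 of them were DEGs. Among all 14211 genes with such counts, 7128 were below 0, and 7.7% were DEGs lower in floral buds. The other 8 synthesis enzymes tested passed the filter through the seedlings alone, which favours a value below 0. Of the 9 breakdown proteins with at least 5 counts in each stage, 4 had a log2 fold change below 0 and 5 above, with values from -3.27 to 5.96. The difference between these classes was not tested. The 25 synthesis genes with a value together took 0.127% (95% Wilson interval 0.119 to 0.135) and 0.109% (0.102 to 0.118) of the counts in floral buds, against 0.422% (0.406 to 0.44) and 0.425% (0.41 to 0.442) in seedlings. The 2 myrosinases TGG1 and TGG2 together took 0.343% and 0.38% of the counts in floral buds, against 0.381% and 0.427% in seedlings, so the highest floral bud library and the lowest seedling library nearly met.

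**Figure D1:**
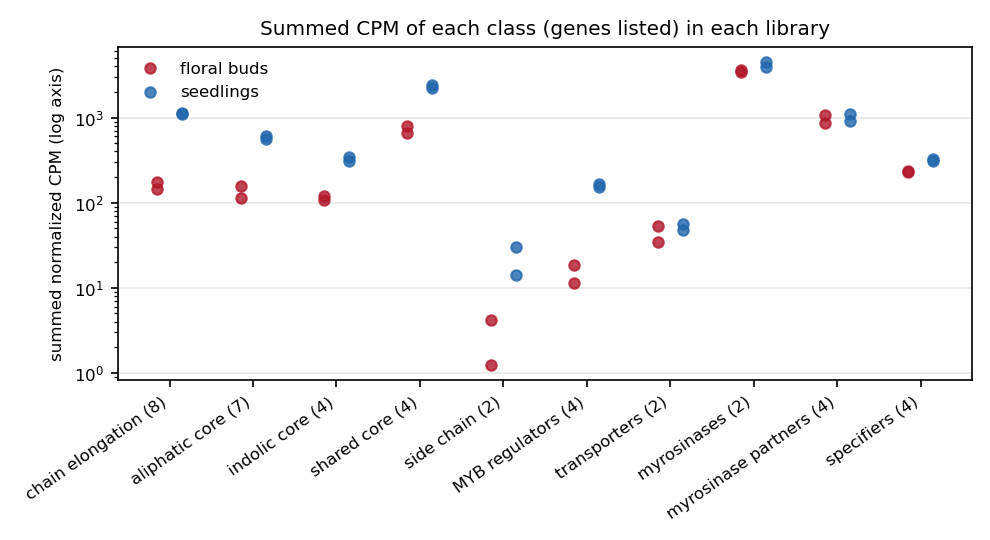
Summed normalized CPM of each class (log axis), with the number of genes with a value in parentheses and 1 point per library, floral buds in red and seedlings in blue. Chain elongation lies at 176.9 and 144 CPM in floral buds, against 1105 and 1134 CPM in seedlings, whereas the partner proteins of myrosinase lie at 856 and 1083 CPM in floral buds, against 919.6 and 1093 CPM in seedlings. The partner sum joins MBP1 and MBP2, higher in floral buds, with ESM1, lower there, and MVP1, not a DEG.

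The upstream sequences of 6 genes are shown first, because the results turn on these genes: the myrosinase-binding proteins MBP1 and MBP2, which showed the largest increases in floral buds, the myrosinases TGG1 and TGG2, whose balance differed between the stages, and BCAT4 and MAM1, the entry steps of methionine chain elongation, which were close to undetected in floral buds. Each is the 300 bases before the annotated start of the gene, 5′ to 3′ on the gene's own strand, from RefSeq TAIR10.1, and none of the 6 windows overlaps an annotated gene. For MBP1 (chr1:19352792-19353091, minus strand), MBP2 (chr1:19349089-19349388, minus strand), BCAT4 (chr3:6849583-6849882, minus strand) and MAM1 (chr5:7702741-7703040, plus strand), capitals mark the G-box CACGTG, the AC element ACCNANC and TATAAA on either strand.
MBP1: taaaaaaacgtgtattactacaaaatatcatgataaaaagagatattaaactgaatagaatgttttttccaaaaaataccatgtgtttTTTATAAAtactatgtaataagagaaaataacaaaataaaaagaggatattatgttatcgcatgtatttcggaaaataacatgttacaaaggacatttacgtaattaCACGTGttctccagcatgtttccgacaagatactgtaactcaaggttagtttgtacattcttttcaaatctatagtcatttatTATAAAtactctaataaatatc
MBP2: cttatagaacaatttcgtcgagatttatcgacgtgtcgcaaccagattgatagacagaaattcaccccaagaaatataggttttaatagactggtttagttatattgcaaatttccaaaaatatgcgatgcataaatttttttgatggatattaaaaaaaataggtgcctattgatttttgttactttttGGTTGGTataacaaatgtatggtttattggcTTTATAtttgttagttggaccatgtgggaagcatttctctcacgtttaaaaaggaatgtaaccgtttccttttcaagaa
BCAT4: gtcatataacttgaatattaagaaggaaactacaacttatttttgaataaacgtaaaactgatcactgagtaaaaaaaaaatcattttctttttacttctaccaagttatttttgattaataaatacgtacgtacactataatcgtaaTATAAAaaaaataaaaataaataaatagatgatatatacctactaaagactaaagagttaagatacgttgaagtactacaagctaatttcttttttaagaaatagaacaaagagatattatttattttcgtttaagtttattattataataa
MAM1: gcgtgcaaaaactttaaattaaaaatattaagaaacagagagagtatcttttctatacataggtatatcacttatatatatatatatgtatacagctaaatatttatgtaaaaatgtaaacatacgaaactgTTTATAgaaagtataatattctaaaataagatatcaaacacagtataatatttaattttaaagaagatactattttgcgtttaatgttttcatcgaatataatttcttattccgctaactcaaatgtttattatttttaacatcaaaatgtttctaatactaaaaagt

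For TGG1 (chr5:9082385-9082684, minus strand) and TGG2 (chr5:9072408-9072707, plus strand), capitals mark every run of at least 12 bases that the 2 windows share.
TGG1: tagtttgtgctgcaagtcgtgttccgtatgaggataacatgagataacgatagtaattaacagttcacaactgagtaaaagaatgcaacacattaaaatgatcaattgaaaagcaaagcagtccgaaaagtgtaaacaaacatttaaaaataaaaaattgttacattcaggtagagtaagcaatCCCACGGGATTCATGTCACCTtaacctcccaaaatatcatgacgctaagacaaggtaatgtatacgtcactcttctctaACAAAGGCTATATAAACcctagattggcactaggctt
TGG2: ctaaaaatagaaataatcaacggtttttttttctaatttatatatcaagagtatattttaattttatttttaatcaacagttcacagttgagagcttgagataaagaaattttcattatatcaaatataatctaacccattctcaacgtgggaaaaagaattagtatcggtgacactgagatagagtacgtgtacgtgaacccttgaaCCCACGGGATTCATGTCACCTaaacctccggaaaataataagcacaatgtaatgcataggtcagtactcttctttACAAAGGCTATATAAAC

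The 2 myrosinase promoters share 2 such runs. The longer one, CCCACGGGATTCATGTCACCT, is 21 bases long and begins 116 bases before the start of TGG1 and 92 bases before the start of TGG2. The other, ACAAAGGCTATATAAAC, is 17 bases long, holds TATAAA, and begins 37 bases before the start of TGG1 and 17 bases before that of TGG2. Outside these runs no stretch of 12 bases was common to both. The MBP1 window held a G-box 105 bases before the start and TATAAA at 212, 210 and 22 bases, of which the first 2 overlap. The MBP2 window held no G-box, an AC element at 110 bases and TATAAA at 79 bases, so the 2 neighbours both held TATAAA but differed in the G-box and the AC element. BCAT4 and MAM1 held TATAAA alone, at 152 and 168 bases.

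Over all 43 members, the G-box stood in 4 windows (9.3%), against 7.09% of 27444 promoters of the same length. The AC element stood in 17 (39.5%), against 31.9%, and TATAAA in 31 (72.1%), against 52.9%. A CArG box, the motif of MADS domain factors, stood in none, against 2.92% of all promoters. The other 3 G-boxes lay in synthesis genes and close to the start, at 38 bases in IPMI-LSU1, 43 bases in CYP83A1 and 50 bases in SUR1. AC elements overlapped each other in BASS5, CYP83A1 and SOT16, TATAAA overlapped itself in CYP83B1 as in MBP1, and an AC element overlapped TATAAA in CYP81F2. These are matches of letters and not mapped binding sites.

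In methionine chain elongation all 8 genes were DEGs and lower in floral buds, against 9.52% of all genes. Of the 8, 4 had at most 3 counts in each floral bud library and passed the filter through the seedlings alone. The other 4 had at least 5 counts in each stage, and all 4 were DEGs lower in floral buds, against 7.7% of genes with such counts. BCAT4 (AT3G19710), the aminotransferase that removes the amino group of methionine at the entry of the cycle, had 0 and 0 counts in floral buds, against 105 and 106 counts in seedlings. Its level was at least 45.8-fold lower in floral buds (FDR 4.98e-47). MAM1 (AT5G23010), the methylthioalkylmalate synthase that condenses the keto acid with acetyl-CoA, had 2 and 0 counts in floral buds, against 97 and 99 counts in seedlings, at least 42.5-fold lower (FDR 1.77e-40). These were the lowest floral bud levels among members that exceeded 90 counts in a seedling library.

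The neighbouring condensing enzyme MAM3 (AT5G23020) had 8 and 2 counts in floral buds, against 56 and 41 counts in seedlings (log2 fold change -3.63, SE 0.45, FDR 1.68e-14), and a log2 fold change of -4.79 without floral bud replicate 1. MAM1 and MAM3 lie in tandem on chromosome 5 (7703041 to 7721866, TAIR10.1) and are 84.7% identical where their transcripts align. MAM1 took 63.4% (55.5 to 70.6) and 70.7% (62.7 to 77.6) of the counts of both in seedlings. In floral buds both genes together had 10 and 2 counts, too few to place a share. BASS5 (AT4G12030), the chloroplast carrier of the keto acids, had 0 and 3 counts in floral buds, against 18 and 15 counts in seedlings, at least 7.17-fold lower (FDR 6.31e-06).

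The isomerase of the cycle, isopropylmalate isomerase, has a large subunit shared with leucine synthesis and small subunits that differ between the pathways. IPMI-SSU2 (AT2G43100), a small subunit, had 2 and 2 counts in floral buds, against 56 and 46 counts in seedlings, at least 22.2-fold lower (FDR 1.59e-19). IPMI-SSU3 (AT3G58990), another small subunit, had 4 and 4 counts in floral buds, against 24 and 32 counts in seedlings (log2 fold change -3.15, SE 0.54, FDR 8.62e-08). IPMI-LSU1 (AT4G13430), the large subunit, had 124 and 86 counts in floral buds, against 161 and 210 counts in seedlings (log2 fold change -1.21, SE 0.20, FDR 1.18e-08). The large subunit was the one gene of the class with more than 10 counts in both floral bud libraries.

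IPMDH1 (AT5G14200), the dehydrogenase that closes the cycle, had 2 and 5 counts in floral buds, against 109 and 120 counts in seedlings (log2 fold change -5.36, SE 0.39, FDR 5.87e-41). Its paralogue IPMDH3, which acts in leucine synthesis and is 90.4% identical to it over 94.9% of the transcript, had 69 and 43 counts in floral buds, against 31 and 37 counts in seedlings, and was not a DEG (FDR 0.494). The CPM of IPMDH3 overlapped between the stages, at 86 and 60.7 CPM in floral buds and 54.7 and 62.7 CPM in seedlings, and it was singled out after its values were seen. Without floral bud replicate 1 the log2 fold change of IPMDH1 was -4.76, and without floral bud replicate 2 it was -6.23. IPMDH1 overlaps AT5G14210 on the opposite strand, which had 19 and 15 counts in floral buds, against 21 and 20 counts in seedlings. Reads were joined to genes without strand, so counts of overlapping genes are uncertain. The same holds for BCAT4, which overlaps AT3G19700, a locus not analysed here.

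**Figure D2:**
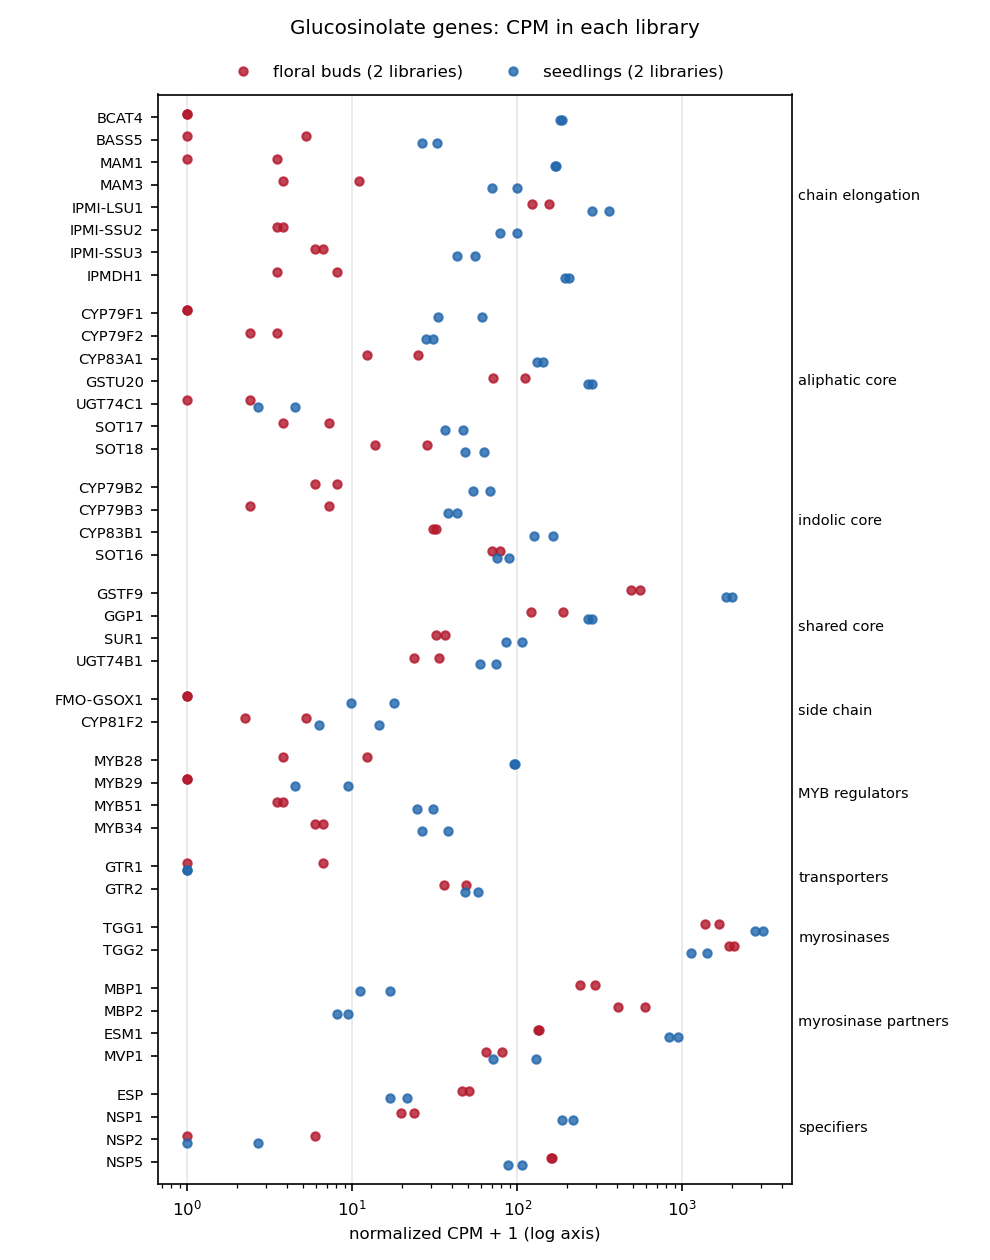
Normalized CPM plus 1 (log axis) of the 41 members with a value, 1 point per library, floral buds in red and seedlings in blue, grouped by role. Apart from IPMI-LSU1, at 154.5 and 121.4 CPM, chain elongation and the MYB factors sit at the low end in floral buds. BCAT4 lies at 0 CPM in both floral bud libraries, against 185.3 and 179.6 CPM in seedlings.

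The aliphatic core followed, with all 6 of its genes that could be tested DEGs and lower in floral buds, against 9.52% of all genes. CYP79F1 and CYP79F2 passed the filter through the seedlings alone. The other 4 had at least 5 counts in each stage, and all 4 were DEGs lower in floral buds, against 7.7% of genes with such counts. CYP79F1 (AT1G16410), which turns chain-elongated methionine into the aldoxime, had 0 and 0 counts in floral buds, against 34 and 19 counts in seedlings, at least 11.6-fold lower (FDR 1.37e-13). Its tandem neighbour CYP79F2 (AT1G16400), which prefers the long-chain substrates, had 2 and 1 counts in floral buds, against 17 and 16 counts in seedlings, at least 7.16-fold lower (FDR 5.98e-06). The pair lies on chromosome 1 (5605044 to 5612064) and is 88.3% identical where the transcripts align. CYP79F1 made up 66.7% (53 to 78) and 54.3% (38.2 to 69.5) of the counts of both in seedlings, intervals that overlap.

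CYP83A1 (AT4G13770), the next P450, which oxidises the aliphatic aldoximes, had 9 and 17 counts in floral buds, against 74 and 84 counts in seedlings (log2 fold change -2.97, SE 0.33, FDR 1.59e-17). The 2 floral bud libraries differed here, and without replicate 2 the log2 fold change was -3.61. GSTU20 (AT1G78370), a glutathione transferase placed in the aliphatic branch, had 88 and 50 counts in floral buds, against 159 and 158 counts in seedlings (log2 fold change -1.59, SE 0.21, FDR 2.69e-12). The sulfotransferases SOT17 and SOT18, which finish aliphatic glucosinolates, were both lower in floral buds. SOT17 (AT1G18590) had 5 and 2 counts in floral buds, against 26 and 21 counts in seedlings (log2 fold change -3.09, SE 0.58, FDR 1.25e-06), and a log2 fold change of -3.75 without floral bud replicate 1. SOT18 (AT1G74090) had 22 and 9 counts in floral buds, against 35 and 28 counts in seedlings (log2 fold change -1.41, SE 0.40, FDR 0.00267). SOT18 had the smallest change of the class, and it was no longer called without floral bud replicate 2 (FDR 0.108) or without seedling replicate 1 (FDR 0.0629). Without floral bud replicate 1 its log2 fold change was -2.07. It also overlaps AT1G74088 on its own strand. UGT74C1 (AT2G31790), a glucosyltransferase, had 0 and 1 counts in floral buds, against 2 and 1 counts in seedlings, and was under the filter.

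In the indolic branch 3 of 4 genes were DEGs and lower in floral buds, against 9.52% of all genes. CYP79B2 (AT4G39950) and CYP79B3 (AT2G22330) both convert tryptophan to indole-3-acetaldoxime. CYP79B2 had 4 and 5 counts in floral buds, against 38 and 31 counts in seedlings (log2 fold change -3.28, SE 0.50, FDR 9.24e-10). CYP79B3 had 5 and 1 counts in floral buds, against 21 and 25 counts in seedlings (log2 fold change -3.27, SE 0.60, FDR 6.61e-07), so the log2 fold changes of the 2 paralogues lay within their errors. That of CYP79B3 was -4.62 without floral bud replicate 1 and -2.66 without floral bud replicate 2. CYP83B1 (AT4G31500), which takes the aldoxime into the pathway, had 24 and 22 counts in floral buds, against 92 and 74 counts in seedlings (log2 fold change -2.23, SE 0.29, FDR 1.11e-12).

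SOT16 (AT1G74100), the sulfotransferase with a preference for indolic substrates, stood apart from the enzymes before it. It had 62 and 49 counts in floral buds, against 42 and 52 counts in seedlings, with a log2 fold change of -0.15 (SE 0.28, FDR 0.774). Its CPM overlapped between the stages, at 77.2 and 69.2 CPM in floral buds and 74.1 and 88.1 CPM in seedlings. SOT16 and SOT18 are neighbours on chromosome 1 (27862814 to 27865694), 151 bases apart on opposite strands, and SOT18 was a DEG while SOT16 was not. The difference between the 2 genes was not itself tested.

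Of the enzymes shared by both branches, 3 of 4 were DEGs and lower in floral buds, against 9.52% of all genes. GSTF9 (AT2G30860), a glutathione transferase, had 446 and 344 counts in floral buds, against 1041 and 1170 counts in seedlings (log2 fold change -1.87, SE 0.14, FDR 1.38e-38). Its counts made up the largest single share of the synthesis genes, out of sums of 1012 and 732 counts in floral buds and 2448 and 2638 counts in seedlings. SUR1 (AT2G20610), the only C-S lyase of the pathway, had 25 and 25 counts in floral buds, against 48 and 62 counts in seedlings (log2 fold change -1.51, SE 0.32, FDR 2.07e-05). UGT74B1 (AT1G24100), a glucosyltransferase, had 26 and 16 counts in floral buds, against 33 and 43 counts in seedlings (log2 fold change -1.24, SE 0.36, FDR 0.00356), a call lost without floral bud replicate 2 (FDR 0.0631) or without seedling replicate 2 (FDR 0.0719). GGP1 (AT4G30530), the gamma-glutamyl peptidase that trims the glutathione conjugate, had 151 and 85 counts in floral buds, against 152 and 167 counts in seedlings. Its log2 fold change of -0.83 (SE 0.20, FDR 0.000222) lay under the fold limit, and it was a DEG without floral bud replicate 1 (-1.19, FDR 1.26e-05).

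Of the side-chain enzymes, FMO-GSOX1 (AT1G65860), which oxygenates methylthioalkyl to methylsulfinylalkyl glucosinolates, had 0 and 0 counts in floral buds, against 5 and 10 counts in seedlings. It was at least 3.23-fold lower in floral buds (FDR 0.00045), a call lost without seedling replicate 2 (FDR 0.0579). CYP81F2 (AT5G57220), which hydroxylates the indole ring, had 1 and 3 counts in floral buds, against 3 and 8 counts in seedlings, and was not a DEG (FDR 0.187). Its fitted log2 fold change of -1.76 had an SE of 0.97.

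All 4 MYB factors were DEGs and lower in floral buds, against 9.52% of all genes, although MYB29 and MYB51 passed the filter through the seedlings alone. MYB28 (AT5G61420), the main activator of the aliphatic genes, had 9 and 2 counts in floral buds, against 54 and 56 counts in seedlings (log2 fold change -3.68, SE 0.43, FDR 2.65e-16). Its value was -4.97 without floral bud replicate 1 and -3.09 without floral bud replicate 2. MYB51 (AT1G18570), an activator of the indolic genes, had 2 and 2 counts in floral buds, against 17 and 14 counts in seedlings, at least 6.74-fold lower (FDR 5.31e-05). MYB34 (AT5G60890), another activator of the indolic genes, had 4 and 4 counts in floral buds, against 21 and 15 counts in seedlings (log2 fold change -2.52, SE 0.60, FDR 0.000254). For the activators of both branches the CPM of the seedlings lay above those of the floral buds, without overlap. Such a lack of overlap, in either direction, held for 57.9% of all genes.

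MYB29 (AT5G07690), which acts beside MYB28, had 0 and 0 counts in floral buds, against 2 and 5 counts in seedlings, at least 1.5-fold lower. Its FDR of 0.0421 was just under the limit, and the call was lost without floral bud replicate 1 (FDR 0.101), without floral bud replicate 2 (FDR 0.0805) and without seedling replicate 1 (FDR 0.0637). MYB28 made up 96.4% (87.9 to 99) and 91.8% (82.2 to 96.4) of the counts of both genes in seedlings.

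The transporters GTR1 and GTR2, proton-coupled importers that load glucosinolates into the phloem, gave no DEG. GTR2 (AT5G62680) had 28 and 34 counts in floral buds, against 32 and 28 counts in seedlings (FDR 0.561), and its CPM overlapped between the stages, at 34.9 and 48 CPM in floral buds and 56.5 and 47.4 CPM in seedlings. It overlaps AT5G62670 on the opposite strand, which had 74 and 51 counts in floral buds, against 33 and 27 counts in seedlings. GTR1 (AT3G47960) had 0 and 4 counts in floral buds, against 0 and 0 counts in seedlings, and was under the filter. It too overlaps a gene on the opposite strand, as does UGT74C1.

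**Figure D3:**
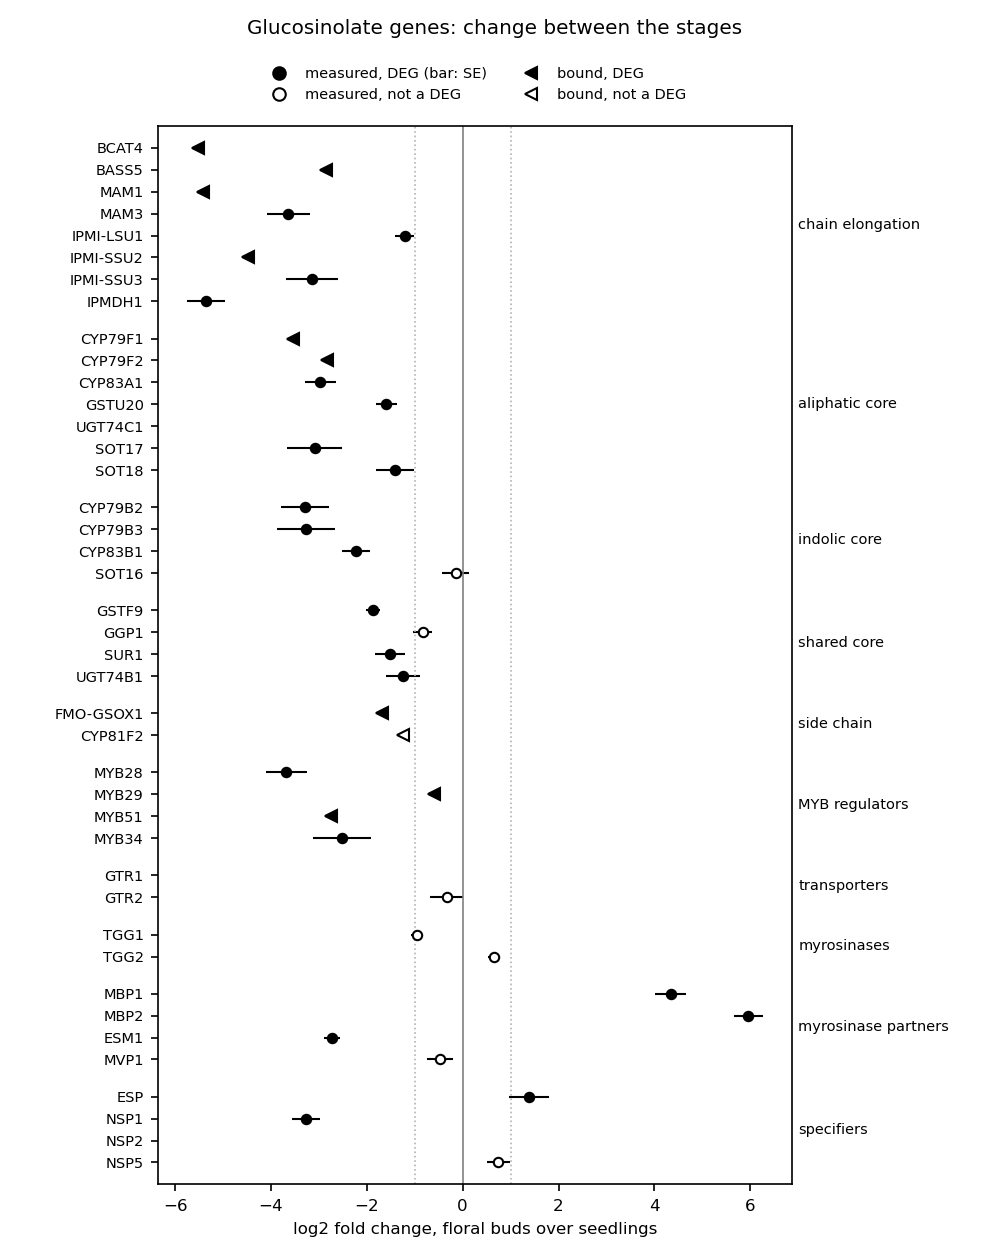
Log2 fold change, floral buds over seedlings, of each member, with bars for the SE, filled symbols for DEGs and dotted lines at the fold limit of 2. Triangles are lower bounds for genes with at most 3 counts in each floral bud library, and UGT74C1, GTR1 and NSP2 have no value. MBP1, MBP2 and ESP are the only filled symbols right of 0.

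TGG1 and TGG2, the myrosinases of the shoot, stood in a different order in the 2 stages. TGG1 (AT5G26000) had 1098 and 1187 counts in floral buds, against 1570 and 1821 counts in seedlings. TGG2 (AT5G25980) had 1639 and 1358 counts in floral buds, against 636 and 826 counts in seedlings. TGG2 exceeded TGG1 in both floral bud libraries, and TGG1 exceeded TGG2 in both seedling libraries. TGG1 made up 40.1% (38.3 to 42) and 46.6% (44.7 to 48.6) of the counts of both genes in floral buds, against 71.2% (69.2 to 73) and 68.8% (67 to 70.5) in seedlings. The intervals, which cover counting error only, did not overlap between the stages, although the floral bud libraries also differed from each other by more than counting error. With 2 libraries against 2, an exact permutation test cannot give a p below 0.333, so the share was not tested.

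Neither gene passed the fold limit. TGG1 had a log2 fold change of -0.94 (SE 0.12, FDR 1.15e-12) and TGG2 one of 0.65 (SE 0.13, FDR 7.08e-06). TGG1 was a DEG without floral bud replicate 2 (-1.12) and without seedling replicate 1 (-1.03). The size of each value also rested on the scaling. With limma-voom after full quantile normalization the log2 fold change was -0.02 for TGG1 (FDR 0.958) and 1.31 for TGG2 (FDR 0.00449), so that there TGG2 was a DEG and TGG1 was not. The share of TGG1 among the counts of both genes does not rest on a scaling.

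With 1 read per molecule, CPM was not divided by transcript length. TGG1 had a mean of 1522 CPM in floral buds, against 2928 CPM in seedlings. TGG2 had a mean of 1980 CPM in floral buds, against 1261 CPM in seedlings. By mean CPM TGG2 was the most abundant member in floral buds, and TGG1 in seedlings, where GSTF9 had 1910 CPM. The genes lie 3674 bases apart on chromosome 5 (9072708 to 9082384), with their 3′ ends facing each other and 2 protein-coding genes between them. Their transcripts are 81% identical where aligned.

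Guard cell markers, read beside TGG1 because guard cells hold this enzyme, summed to 16 and 12 counts in floral buds, against 15 and 21 counts in seedlings. MYB60 had 4 and 1 counts in floral buds, against 6 and 13 counts in seedlings (FDR 0.0205). KAT1 had 12 and 11 counts in floral buds, against 9 and 8 counts in seedlings, and HT1 was at 0 in all 4 libraries. The part of guard cell number in the TGG1 counts was not tested.

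**Figure D4:**
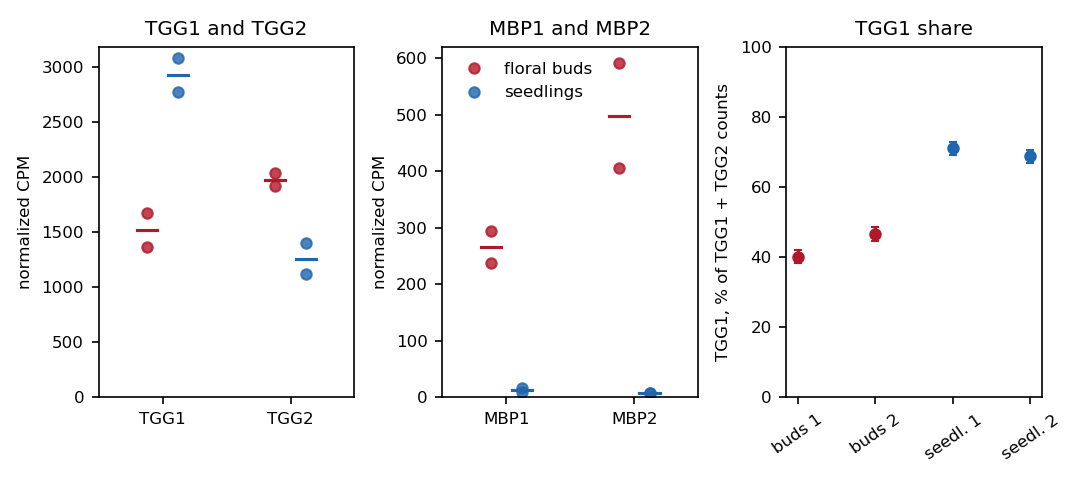
Normalized CPM of TGG1 and TGG2 and of MBP1 and MBP2 (points: libraries, dashes: means, floral buds in red, seedlings in blue), and the share of TGG1 in the counts of both myrosinases with 95% Wilson intervals. The TGG1 share is 40.1% and 46.6% in floral buds, against 71.2% and 68.8% in seedlings.

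The myrosinase-binding proteins, lectin-like proteins found in complexes with myrosinase, were the members with the largest increase in floral buds. MBP2 (AT1G52030) had 325 and 418 counts in floral buds, against 4 and 5 counts in seedlings, 62.3-fold higher (log2 fold change 5.96, SE 0.31, FDR 2.15e-80). MBP1 (AT1G52040) had 191 and 209 counts in floral buds, against 9 and 6 counts in seedlings, 20.2-fold higher (log2 fold change 4.34, SE 0.32, FDR 7.13e-41). Both calls held in each alternative that could test them. The genes lie head to tail on the minus strand of chromosome 1 (19345871 to 19352791), 1225 bases apart, and are 88.6% identical over 62% of the MBP1 transcript.

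Within the pair, MBP1 made up 37% (33 to 41.3) and 33.3% (29.8 to 37.1) of the counts in floral buds. In seedlings, with 13 and 11 counts in all, its share of 69.2% (42.4 to 87.3) and 54.5% (28 to 78.7) was known only loosely. MBP1 and MBP2 had means of 266.6 and 497.6 CPM in floral buds, against 13.03 and 7.767 CPM in seedlings. In floral buds the mean CPM of each binding protein thus lay below that of each myrosinase.

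The other partner proteins, members of the GDSL lipase family, did not move with the binding proteins. ESM1 (AT3G14210), the epithiospecifier modifier, which favours isothiocyanates over nitriles, had 107 and 95 counts in floral buds, against 468 and 558 counts in seedlings (log2 fold change -2.73, SE 0.17, FDR 5.58e-53). MVP1 (AT1G54030), a myrosinase-associated protein also needed for normal endomembranes, had 64 and 45 counts in floral buds, against 40 and 76 counts in seedlings, and was not a DEG (FDR 0.207). Its CPM overlapped, at 79.7 and 63.5 CPM in floral buds and 70.6 and 128.8 CPM in seedlings, and without seedling replicate 2 its log2 fold change was 0.02.

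Among the specifier proteins the direction was split. ESP (AT1G54040), the epithiospecifier protein, had 40 and 32 counts in floral buds, against 9 and 12 counts in seedlings (log2 fold change 1.38, SE 0.42, FDR 0.00708). The stages of ESP did not overlap, but the call was lost without floral bud replicate 1 (FDR 0.0672) and without seedling replicate 1 (FDR 0.0755). NSP1 (AT3G16400), a nitrile specifier, had 15 and 16 counts in floral buds, against 105 and 127 counts in seedlings (log2 fold change -3.27, SE 0.30, FDR 1.04e-26). Both ESP and NSP1 direct hydrolysis away from isothiocyanates, and their transcripts stood in opposite order in the 2 stages.

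NSP5 (AT5G48180), a further nitrile specifier, had 130 and 113 counts in floral buds, against 60 and 51 counts in seedlings, with a log2 fold change of 0.74 (SE 0.24, FDR 0.00952) that lay under the fold limit. NSP2 (AT2G33070), known from seeds, had 4 and 0 counts in floral buds, against 0 and 1 counts in seedlings, too few for a fold change. The most abundant of the 4 specifiers by mean CPM was NSP5 in floral buds and NSP1 in seedlings. NSP5 had a mean of 160.8 CPM in floral buds, against 96.16 CPM in seedlings. NSP1 had a mean of 20.64 CPM in floral buds, against 200.3 CPM in seedlings. NSP1 is 90.6% identical to NSP4 where they align, so the counts of these copies are uncertain.

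ESP and MVP1 are neighbours on chromosome 1 (20167597 to 20173949), 1030 bases apart. MVP1 made up 61.5% (51.9 to 70.3) and 58.4% (47.3 to 68.8) of the counts of both in floral buds, against 81.6% (68.6 to 90) and 86.4% (77.7 to 92) in seedlings. The intervals of both floral bud libraries overlap that of seedling replicate 1, so the difference between the stages was not clear of counting error in every pair of libraries.

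Other genes of the pathway, 39 in number and also chosen with earlier results known, gave 35 with a value and 32 that could be tested. Of these 14 were DEGs (43.8%, against 19.8% of all genes), 13 lower in floral buds (40.6%, against 9.52%) and 1 higher (3.12%, against 10.3%), and the median log2 fold change was -0.90, against 0.06 over all genes. The folds of 10 of the 32 are lower bounds. Among those with at least 5 counts in each stage, 6 of 23 were DEGs (26.1%, against 14.1% of all such genes), 5 lower and 1 higher. GSTF10, a neighbour and relative of GSTF9, had 227 and 178 counts in floral buds, against 522 and 587 counts in seedlings (log2 fold change -1.84, SE 0.16, FDR 2.75e-29). NIT2, a nitrilase, had 2 and 2 counts in floral buds, against 31 and 39 counts in seedlings, at least 15.2-fold lower (FDR 6.96e-13). IGMT1 and IGMT5, methyltransferases of indolic glucosinolates, were both lower. IGMT1 had 0 and 0 counts in floral buds, against 16 and 8 counts in seedlings (FDR 1.79e-06), and IGMT5 had 23 and 28 counts in floral buds, against 55 and 51 counts in seedlings (FDR 7.17e-05).

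The remaining decreases were in genes of low count. The transporter GTR3 had 2 and 2 counts in floral buds, against 6 and 9 counts in seedlings, with an FDR of 0.0495, just under the limit. NSP4 had 0 and 0 counts in floral buds, against 8 and 10 counts in seedlings (FDR 7.15e-05), and the hydroxylase CYP81F4 had 0 and 0 counts in floral buds, against 7 and 9 counts in seedlings (FDR 0.000241). The root myrosinases TGG4 and TGG5 had 0 counts in both floral bud libraries, against 5 and 9 counts of TGG4 and 8 and 7 counts of TGG5 in seedlings (FDR 0.000836 and 0.000443). The root marker CASP1, at 0 and 0 counts in floral buds against 23 and 18 counts in seedlings, moved with them, and the part of root tissue in these genes was not tested. TGG4 was not called without seedling replicate 2 (FDR 0.0579). NIT3, a further nitrilase (log2 fold change -2.28, FDR 0.000475, and -2.89 without floral bud replicate 1), was lower too. So were SDI1, a repressor induced by sulfur deficiency (FDR 0.00727), FMO-GSOX2 (FDR 0.0122) and FMO-GSOX3 (FDR 0.0178), but each of these 3 calls was lost without 1 library. The FDR of SDI1 was 0.225 without floral bud replicate 2 and 0.274 without seedling replicate 2, and its log2 fold change of -1.74 became -3.36 without floral bud replicate 1. The FDR of FMO-GSOX2 was 0.124 without floral bud replicate 1 and 0.0897 without seedling replicate 2, and that of FMO-GSOX3 lay between 0.0597 and 0.104 whichever library was left out. The 1 gene higher in floral buds, CYP81F1, was singled out after its values were seen. It had 24 and 12 counts in floral buds, against 4 and 4 counts in seedlings (FDR 0.0225), and the call was lost without floral bud replicate 1 (FDR 0.316), without seedling replicate 1 (FDR 0.0931) and without seedling replicate 2 (FDR 0.108).

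A few genes that were not DEGs were singled out after their values were seen. The MYC factors that act with the MYB proteins were not DEGs, with 111 and 83 counts of MYC2 in floral buds, against 63 and 56 counts in seedlings (FDR 0.39). FAMA, the factor that sets guard cell and myrosin cell fate, had 4 and 9 counts in floral buds, against 6 and 10 counts in seedlings (FDR 0.536). GSH1, the first enzyme of glutathione synthesis, had 106 and 103 counts in floral buds, against 138 and 124 counts in seedlings (log2 fold change -0.71, FDR 0.00398), under the fold limit. The atypical myrosinase PEN2 had 69 and 43 counts in floral buds, against 72 and 84 counts in seedlings (log2 fold change -0.87, FDR 0.00404), also under it, though it was a DEG without floral bud replicate 1 (-1.14, FDR 0.00286).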

How the data were processed

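Poly(A) RNA of 2 floral bud and 2 seedling samples was sequenced by DRS. The authors called bases with Guppy, aligned reads with Minimap2 (version 2.17 in the submitters' processing notes) to TAIR10 and assigned them to genes with TrackCluster, joining reads to genes by overlap and without strand. The deposited values are estimated counts per gene, without normalization, and 83.78% of those above 0 were not whole. The labels speak of biological replicates. Columns repeated for 3 libraries held identical values and were used once.

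These expected counts were rounded. Genes summing to at least 5 counts were tested by the quasi-likelihood method of edgeR 4.0.16 in R 4.3.3 (functions glmQLFit and glmQLFTest), with stage as the only term, upper-quartile factors and Benjamini-Hochberg adjustment over all genes tested. The study's methods name quantile normalization, to which the upper quartile comes closest among edgeR's scalings. The biological coefficient of variation was 14.6%. The prior degrees of freedom were infinite, so the quasi-likelihood dispersions were pooled over genes and not set by each gene's own replicates. The smallest FDRs depend on the method: with limma-voom the FDR was 0.00601 for BCAT4 and 0.00885 for MAM1. Standard errors are the log2 fold change over the square root of F. With at most 3 counts in each library of 1 stage, the fold is a lower bound. It is the other stage's mean normalized CPM over the mean normalized CPM of 3 counts per library. No fold is given where the other stage's mean was also at or under the limit. Shares have 95% Wilson intervals, which cover counting error only, as do the limits. Positions and sequences came from RefSeq TAIR10.1, and copies were sought with blastn 2.17.0. Alternatives were TMM and library size scaling, DESeq2 1.42.0, limma 3.58.1 (voom), other filters, FDR alone, a replicate block and leaving out each library. The fit was tested on simulated data.

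Every member is named with its counts, with full statistics for DEGs and for others where a statement turned on them. Of the other pathway genes, all 14 DEGs are named. The members and lists were chosen with earlier results of these data known. Isoforms were not analysed here.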

Additional observations from a re-analysis of the deposited data

How the results depend on the processing

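Of the 30 member DEGs, 25 were called in every one of the 12 alternatives in which they could be tested. DESeq2 did not call SOT18, UGT74B1, MYB29 and ESP, limma-voom did not call SOT18 and MYB29, and MYB29 was also lost without a filter. With FDR alone GGP1, TGG1, TGG2 and NSP5 were called, which gave 5 members higher in floral buds. With at least 10 counts in each library 15 members could be tested, and 8 were DEGs, 8 lower and 0 higher, since a gene absent from 1 stage cannot pass that filter. Leaving out 1 library gave 27 to 29 member DEGs, 2 to 3 higher and 24 to 27 lower.

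Over all genes, DESeq2 called 1965 DEGs (991 higher and 974 lower), the filter of at least 10 counts in each library 1037 (448 higher and 589 lower), and limma-voom 1223 higher, while leaving out 1 library gave 2906 to 3307. That filter also moved the share of DEGs higher in floral buds to 43.2%, against 51.9%. Of the other pathway genes DESeq2 called 8 (8 lower, 0 higher) and that filter 2 (2 lower, 0 higher). The 1 higher gene was lost, leaving 0, with limma-voom, without a filter and with the replicate block. Leaving out 1 library gave 9 to 12 of them, 0 to 1 higher and 9 to 12 lower.

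Same-numbered libraries' deviations correlated at -0.05 over 6531 genes, but 2 pairs of libraries are too few to tell whether replicate numbers pair the samples. With the replicate block 29 members were DEGs, MYB29 being lost, and 3095 genes in all.

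The genes that changed sign were not DEGs, and their log2 fold changes are given here. With library size alone GGP3 was at 0.038, IQD1 at 0.0010 and MYC3 at 0.016. Leaving out 1 library gave -0.85 to 0.019 for MVP1, -0.40 to 0.19 for GGP3, -0.030 to 0.81 for FMO-GSOX4, -1.57 to 0.48 for SLIM1, -0.44 to 0.34 for IQD1, -0.31 to 0.12 for MYC3 and -1.64 to 0.085 for MYC4. The causes were not tested. Depth limits the low genes most: 10 members passed the filter through 1 stage alone, and their folds are bounds.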
